A study of Brassica napus with 12 samples.

Results

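The 200 most abundant leaf-limited genes of oilseed rape (Brassica napus) are described here. This crop is an allotetraploid, which carries the A and C subgenomes of its parent species. The genes were chosen by their levels in these libraries: a gene was kept when its mean over 6 root libraries was under 0.5 CPM (its count per 1000000 gene counts of the library), and the 200 with the highest mean CPM over 6 leaf libraries were taken from 52962 gene identifiers. Wild-type plants of the variety Citizzen were raised in hydroponic culture. Treatment began when leaf 4 emerged and lasted 1 week. Plants were given silicon (Si) at 1.7 mM, supplied as the metasilicate salt of sodium, or NaCl at 3.4 mM to match the sodium. The NaCl also added chloride to the no-Si plants, so an effect of chloride and one of Si cannot be told apart. With 2 organs and 2 treatments there were 4 groups of 3 poly(A) RNA libraries, and leaf libraries carry the title mature leaf with aerial as the tissue. The labels call the replicates biological but do not say how many plants each held, so p-values measure only the spread between these libraries. All no-Si libraries and leaf Si replicate 3 carried 12 February as the labelled planting date, and the other Si libraries 21 March. All 12 had 28 March as the labelled harvest date. The labelled time from planting to harvest thus differed with treatment, and for most Si libraries it leaves no room for growth to leaf 4 before a week of supply. In roots labelled date and treatment cannot be told apart.

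Leaves are the main photosynthetic organ, and many genes of light harvesting, carbon fixation, the cuticle and the stomata are transcribed strongly in them and little in roots. In an allotetraploid such genes usually exist as related A and C copies, so reads of near-identical copies can be lost or be assigned to the other copy. The deposited files give identifiers without names. Of the 200 members, 14 had an identifier equal to a symbol in a RefSeq gene table, all 14 were listed there as protein coding, and 0 had a further name. Lists of leaf pathways, and leaf or root markers, could therefore not be matched to identifiers, and the labelled organs could not be checked against named markers. Each gene is called by its identifier, which carries its chromosome, or nn where it is unplaced. CPM was not divided by transcript length, so the order of members by CPM is not an order of transcript numbers.

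Leaf and root levels chose the members and are given as a description without a test. Leaf means ran from 70.2 to 468 CPM with a median of 118.0 CPM. In leaves 43 members stood at 200 CPM or more, and 67 under 100 CPM. Root means ran from 0.0675 to just under the limit, with a median of 0.241 CPM. Together the members held between 2.78% and 3.23% of the gene counts of a leaf library, and between 0.00175% and 0.00993% of those of a root library. In the root libraries with the fewest and the most such counts the exact 95% binomial intervals were 0.00156% to 0.00196% and 0.00944% to 0.0104%, which cover counting error only. In such bulk samples fewer cells of a type and less RNA per cell cannot be told apart. Summed over members, the leaf level was 585 times the root level. With each root library left out, that ratio ran from 517 (without Si replicate 3) to 722 (without no-Si replicate 2). It was 959.7 when library sizes were scaled by trimmed mean of M-values (TMM) over all 12 libraries.

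The member with the highest leaf mean was BnaAnng40550D, an unplaced gene of the A subgenome, with 468 CPM. Its leaf levels were 226, 729.9 and 547 CPM without Si and 605, 326 and 374 CPM with Si. The groups overlapped, and the lowest and the highest value were both in no-Si libraries. In roots it had 5, 22 and 4 reads without Si and 5, 10 and 2 reads with Si, so no-Si replicate 2 held the most. BnaC02g25420D followed with a leaf mean of 457 CPM. It stood at 338, 629 and 483 CPM without Si and at 503, 405 and 383 CPM with Si, again lowest in no-Si replicate 1 and highest in no-Si replicate 2. Leaf no-Si replicate 2 also had the fewest gene counts of all libraries (14429867), and 15.6% unmapped reads beside 5.36% to 6.23% in the other leaf libraries. The part of these in its values was not tested. BnaC06g39450D, with a mean of 337 CPM, had the same order at its ends, with 176, 504 and 357 CPM without Si and 455, 250.5 and 277 CPM with Si.

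Other members near the top differed less among libraries. BnaC02g07030D stood at 441, 451 and 466 CPM without Si and at 408, 368 and 402 CPM with Si, so each Si library lay under each no-Si library. BnaC06g41070D stood at 350.0, 324 and 362 CPM without Si and at 291, 307 and 282 CPM with Si, also without overlap. BnaA07g32150D was even in the no-Si libraries, with 429.8, 448 and 461 CPM. In the Si libraries it stood at 289, 451 and 386 CPM, lowest in Si replicate 1. The remaining 4 of the first 10 members were BnaA08g00380D, BnaC08g07850D, BnaC03g30230D and BnaA05g09400D, with leaf means of 383, 379, 347 and 329 CPM, and the groups overlapped for each of the 4.

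**Figure D1:**
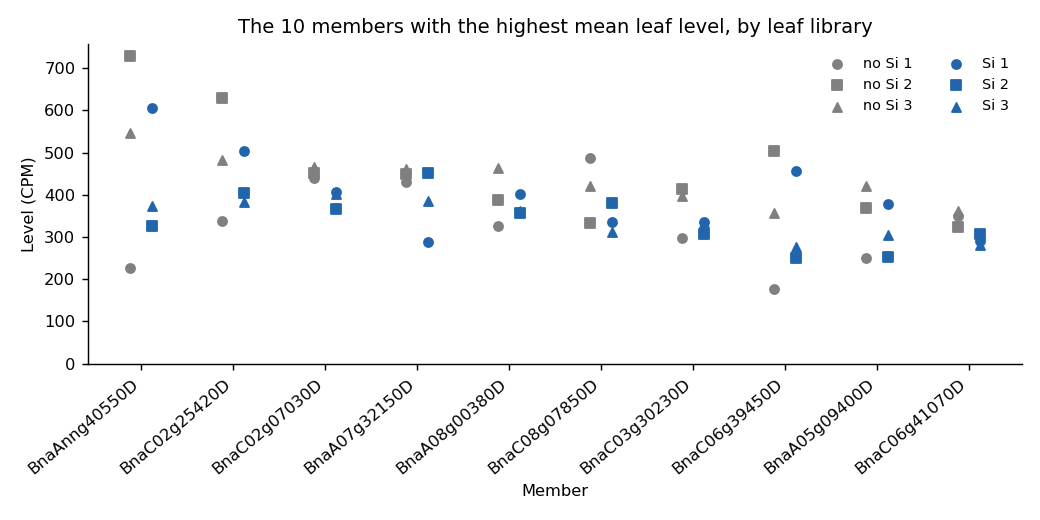
Level in CPM (y axis) of the 10 members with the highest mean leaf level (x axis) in each leaf library; grey symbols are no-Si and blue symbols Si libraries, and the symbol's shape gives the replicate number. BnaAnng40550D, BnaC02g25420D and BnaC06g39450D spread widely among the no-Si libraries, while BnaC02g07030D and BnaC06g41070D spread little.

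At the limits of the list, the last 2 members by leaf level were BnaC03g65160D (70.6 CPM) and BnaC04g17780D (70.2 CPM), and the first 2 genes left out were BnaA08g28900D (69.9 CPM) and BnaC06g15880D (69.8 CPM). At the root limit, the members BnaA02g13300D and BnaC06g35410D had root means of 0.494 and 0.496 CPM. The genes BnaA02g26990D and BnaA10g15370D had 0.5099 and 0.511 CPM and were left out, with leaf means of 74.5 and 88.5 CPM. The list held 9.00% of the 2221 genes with a leaf mean at or above that of its last member. Of the other 2021 such genes, 151 had a root mean from 0.5 to 1 CPM, 477 from 1 to 10 CPM and 1393 of 10 CPM or more.

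The root limit is an absolute level, and it left out genes with a higher leaf level and a like ratio of leaf to root. Among members this ratio of mean CPM ran from 168 for BnaC08g47170D to 1427 for BnaAnng38080D, with a median of 617. There were 227 genes with a leaf mean above that of BnaAnng40550D, and 76 of them had a ratio at or above the members' median. The highest ratio outside the list was 1041 among the 2021 other genes at or above the last member. No gene of the 2221 was without a read in all 6 root libraries.

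**Figure D2:**
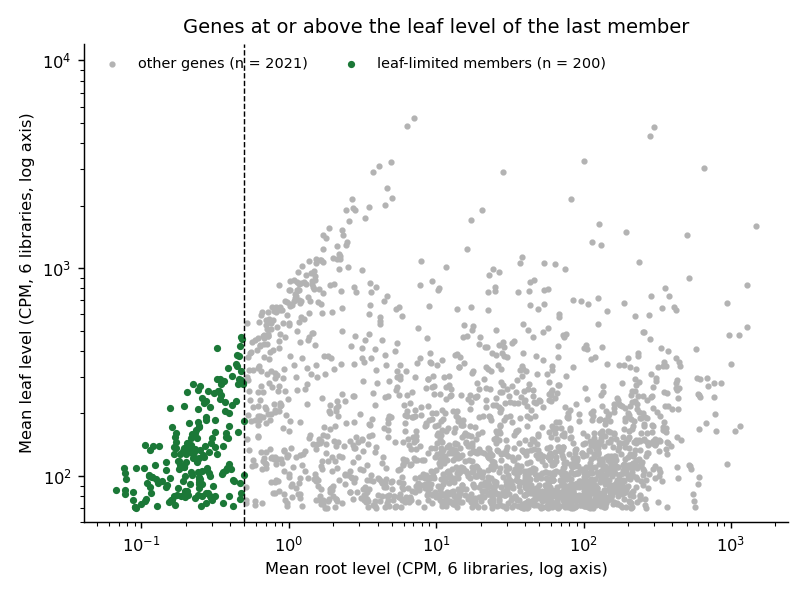
Mean leaf CPM (y axis, log) against mean root CPM (x axis, log) of the 2221 genes at or above the leaf level of the last member; green points are the 200 members, grey points the 2021 other genes, and the dashed line is the root limit of 0.5 CPM. Genes with a high leaf level and a low root level lie along a slanted upper edge that crosses the limit, with root means that rise with the leaf mean.

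Every member had reads in roots, but few. Over the 6 root libraries a member had from 7 to 50 reads with a median of 25, and 109 members had at least 1 read in each root library. BnaA03g24310D had the lowest root mean, 0.0675 CPM, with 1, 2 and 1 reads without Si and 2, 1 and 0 with Si. BnaC06g35410D, at the upper end, had 7, 19 and 7 reads without Si and 7, 5 and 5 with Si. Only 1 member passed the filter on low counts in roots, so the Si comparison was not made there.

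The reads of the members were spread unevenly over the root libraries. As a sum they were 861, 1569 and 594 in no-Si roots and 796, 1122 and 292 in Si roots. As a percentage of the mean leaf sum in CPM this was 0.159%, 0.333% and 0.127% without Si and 0.138%, 0.209% and 0.0586% with Si, so the Si and no-Si groups overlapped. No-Si replicate 2 was the highest of the 6 for 122 of the 200 members. Si replicate 3 was the lowest for 99, with ties at 0 reads given to the library listed first. It was thus lowest or joint lowest for more than 99. In no-Si replicate 2 each member had at least 1 read, whereas 73 members had 0 reads in Si replicate 3. The 200 genes that follow in the ranking, with leaf means down to 33.5 CPM, kept no-Si replicate 2 highest (0.486% of their mean leaf sum) and Si replicate 3 lowest (0.214%).

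The reverse list gave almost the same order of replicates. It was made of the 200 genes with a mean under 0.5 CPM in leaves and the highest root means. In leaf libraries its sum was 0.195%, 0.305% and 0.191% of its mean root sum without Si and 0.218%, 0.254% and 0.0847% with Si. By these percentages, root and leaf libraries of no-Si replicate 2 were thus highest, those of Si replicate 2 came next, and those of Si replicate 3 were lowest. As reads, leaf Si replicate 2 held 1041 of the reverse list and leaf no-Si replicate 2 held 845. No-Si replicate 1 and Si replicate 1 changed places between the lists. Whether the root reads of the members came from root RNA was not tested.

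**Figure D3:**
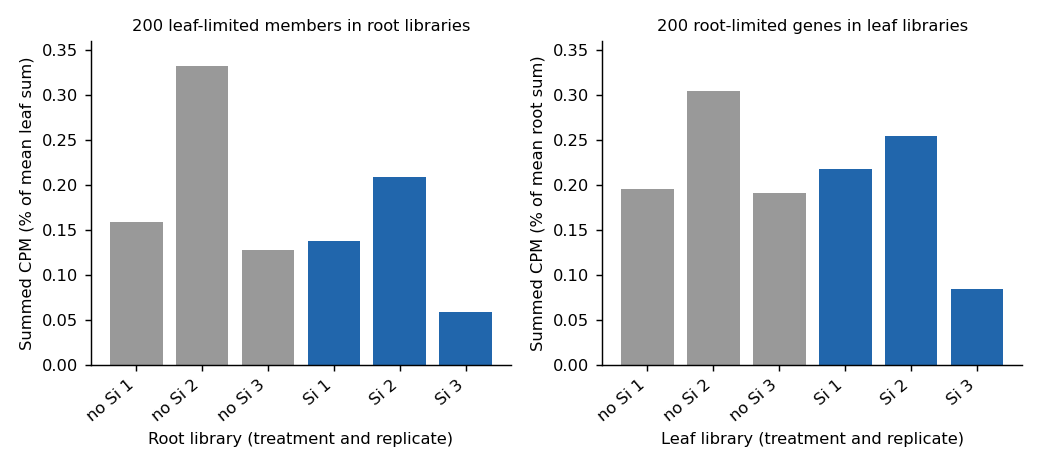
Left, summed CPM of the 200 leaf-limited members in each root library, as a percentage of their mean sum in leaves; right, summed CPM of the 200 root-limited genes in each leaf library, as a percentage of their mean sum in roots. Grey bars are no-Si and blue bars Si libraries, and in both panels no-Si replicate 2 is highest and Si replicate 3 lowest.

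Leaf and root means chose the members, so how they go together within the list is only described. The 50 members with the highest leaf means had a summed root level of 0.1296% of their leaf level, the next 50 of 0.166%, then 0.216%, and the last 50 of 0.258%. The median root mean was 0.342 CPM in the first 50 and 0.197 CPM in the last 50. Across members, Pearson's r between log10 leaf and root CPM was 0.59 in no-Si replicate 2 and 0.04 in Si replicate 3, the libraries with the most and the fewest such reads. Members of 1 library share its depth. The limit of 0.5 CPM in roots also caps the root level as a percentage of leaf, lower for members with higher leaf means. The rule itself thus favours percentages that fall as the leaf level rises, and it restricts r.

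The leaf response to Si was not used to choose the members, and was tested over all 41051 genes that passed the filter. A lower median of leaf-enriched genes with Si was already known from these libraries, so the direction of the members given here is no independent evidence of it. No member passed the edgeR quasi-likelihood test (0 of 200 at a Benjamini-Hochberg adjusted p under 0.05, smallest 1.00), beside 3 called genes or 0.00731% of all tested. DESeq2 called 1 member, BnaA07g28910D, beside 0.101% of the 43489 genes it gave an adjusted p. At an unadjusted p under 0.05 by edgeR, 28 members (14.0%) were lower with Si and 2 (1.00%) higher, beside 2.71% lower and 1.38% higher among all genes tested. With library sizes left unscaled the members gave 20 lower and 2 higher, and all genes 770 lower and 779 higher in place of 1111 and 568.

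The members' log2 fold changes lay mostly below 0. Their median was -0.17, a level of 0.890 times that without Si, and 158 of 200 (79.0%) were below 0. Among all genes tested the median was -0.004 and 50.7% were below 0, and among the 2021 other genes with a leaf mean at or above that of the last member the median was -0.02 and 54.1% were below 0. Of those 2021 genes, 72 (3.56%) were lower and 29 (1.43%) higher at an unadjusted p under 0.05. The summed share of the members was 3.12 ± 0.114% without Si and 2.85 ± 0.0822% with Si (SD, n = 3), with 3.13%, 3.00% and 3.23% against 2.82%, 2.94% and 2.78%, so the groups did not overlap. Without its first 10 genes the list held 2.71 ± 0.145% and 2.49 ± 0.0989% (SD, n = 3), and the groups then overlapped. The first 10 genes alone held 0.332%, 0.459% and 0.438% without Si and 0.400%, 0.340% and 0.342% with Si, and overlapped too. All these shares are of unscaled gene counts, and TMM-scaled shares were not computed. Whether the lack of overlap of the whole list rests on its first 10 genes was thus not tested.

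**Figure D4:**
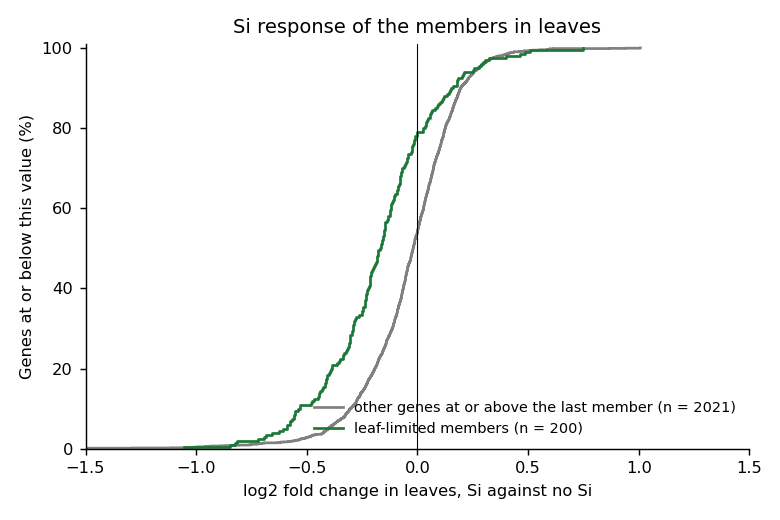
Cumulative percentage of genes (y axis) at or below a given log2 fold change in leaves, Si against no Si (x axis); the green line is the 200 members and the grey line the 2021 other genes with at least the leaf level of the last member. The green line crosses 0 at 79.0% and the grey line at 54.1%.

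Counts without overlap were also uneven. On TMM-scaled CPM, 36 members (18%) had each Si library below each no-Si library and 3 (1.5%) had each above. Among all genes tested 4.78% were lower and 4.54% higher, and among the 2021 others at this leaf level 7.22% and 4.11%. On unscaled CPM 23 members were lower and 4 higher, beside 3.11% and 6.5% of all genes tested. The 3 higher members were BnaC09g23280D, BnaCnng78230D and BnaCnng29080D. In both directions, 30 members and 1679 of all genes tested had an unadjusted p under 0.05 by edgeR. With the labelled planting date as a term these became 14 members, all lower, and 855 genes. That fit judges Si from leaf Si replicate 3 alone, the single Si leaf library with the date of the no-Si libraries. Counts also moved with single libraries. They were 18 members and 1335 genes without no-Si replicate 3, 14 and 1107 without Si replicate 3, and 45 and 2917 without no-Si replicate 2.

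Single members give the scale of these differences. BnaA07g28910D, on A07, had the smallest p of the list. It stood at 165, 175 and 129.6 CPM without Si and at 65.1, 108 and 61.7 CPM with Si, without overlap. Its log2 fold change was -1.06 (SE 0.23; edgeR, unadjusted p = 0.00151, Benjamini-Hochberg adjusted p = 1.00). By DESeq2 the adjusted p was 0.0183, and over all alternatives it ran from that value to 1.00. BnaA06g38550D, on A06, was the next, with 97.3, 93.6 and 97.9 CPM without Si and 69.4, 59.1 and 55.9 CPM with Si. The groups did not overlap, yet the log2 fold change of -0.69 (SE 0.15) did not pass by edgeR (Benjamini-Hochberg adjusted p = 1.00) or by DESeq2 (adjusted p = 0.0722).

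The 2 members with the smallest p among those higher with Si are given next. BnaC09g23280D, on C09, stood at 65.2, 74.3 and 117 CPM without Si and at 156, 149 and 140.1 CPM with Si, without overlap. Its log2 fold change was 0.75 (SE 0.23; adjusted p = 1.00 by edgeR with Benjamini-Hochberg adjustment). BnaCnng78230D, an unplaced C gene, stood at 60.2, 76.7 and 98.4 CPM without Si and at 107, 113 and 121 CPM with Si, and its log2 fold change of 0.49 (SE 0.20) did not pass either (edgeR adjusted p = 1.00). Among the 14 members in the RefSeq table, 2 had an unadjusted p under 0.05 by edgeR, beside 30 of all 200 members and 1679 of the 41051 genes tested. They were BnaA02g08170D (log2 fold change -0.59) and BnaC03g16100D (-0.40), both lower, and neither passed after Benjamini-Hochberg adjustment.

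Members also varied among leaf libraries of 1 treatment. The fold between the lowest and the highest of the 6 leaf libraries had a median of 1.63 over members and of 1.47 over the 2021 other genes, and exceeded 2 for 52 members (26%) and for 13.9% of the others. The median SD of log2 CPM within a group was 0.27 over members without Si and 0.20 with Si, beside 0.22 and 0.16 for the 2021 others. No member was off in a leaf library, defined as under 1/30 of its highest leaf CPM, and 2 of the 2021 others were. Counts this small show no difference between the lists.

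The widest range belonged to BnaA02g28200D, at 133, 123 and 156 CPM without Si and 42.2, 92.3 and 139 CPM with Si, a 3.71-fold range set by Si replicate 1. BnaC07g32980D ranged 3.47-fold, with 74.8, 194 and 177 CPM without Si and 259.8, 126 and 146 CPM with Si. BnaC04g51600D was highest where BnaC07g32980D was lowest, in no-Si replicate 1, with 339, 105 and 201.4 CPM without Si and 105, 197 and 142 CPM with Si, a 3.24-fold range, and BnaAnng40550D ranged 3.23-fold. At the other end, BnaC08g17700D held between 105 and 117 CPM in all 6 leaf libraries, a 1.12-fold range. BnaA02g33190D held between 91.4 and 103 CPM, also a 1.12-fold range, and both are among the 14 in the RefSeq table.

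Part of the spread went in different directions among the 200 members. Each member's mean and then each library's mean over the members were subtracted from log2 CPM. A shift common to all members was thus removed. Of the variance left, a first principal component held 55.5%. It had no-Si replicate 1 at 5.18, and no-Si replicate 2 and Si replicate 1 at -3.28 and -3.70. The second held 21.4%, with the no-Si libraries from 1.31 to 2.12 and the Si libraries from -2.55 to -1.20. Such components were not computed for the other 2021 genes. In 70 members (35.0%) no-Si replicate 1 was more than 1.2 times both no-Si replicate 2 and Si replicate 1, and in 35 (17.5%) it was under both by the same factor. Among the 2021 others these were 20.7% and 26.3%. The libraries compared stand at the ends of the first component of these same members. The members' counts thus restate that component and are no separate evidence of it. No-Si replicate 1 was the highest leaf library for 66 members (33.0%), beside 23.5% of the 2221 genes at this leaf level, and the lowest for 41 (20.5%), beside 32.6%. Si replicate 1 was the lowest for 63 members (31.5%), beside 19.9%.

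**Figure D5:**
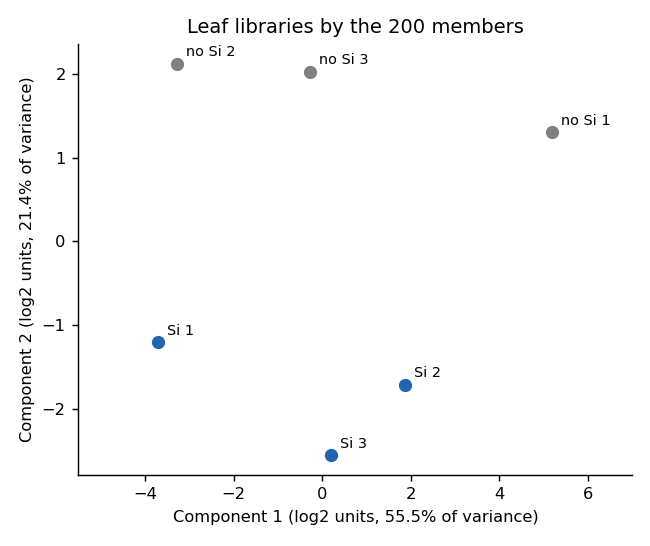
Leaf libraries by the first (x axis) and second (y axis) principal component of the 200 members, in log2 units. Member means and library means over the members were subtracted first, so a shift common to all members is not shown. Grey points are no-Si and blue points Si libraries. The first component, 55.5% of the variance, sets no-Si replicate 1 apart from no-Si replicate 2 and Si replicate 1, and the second, 21.4%, has the no-Si libraries above the Si libraries.

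By identifier 110 members (55.0%) lay in the A and 90 (45.0%) in the C subgenome, beside 48.6% and 51.2% of the other 2021 genes. The chromosomes with the most members were A05 and C04 with 15 each (7.50%, beside 4.50% and 5.74% of the others), and A06 with 14 (7%, beside 5.10%). A03 and A09 held 13 each (6.50%), beside 6.43% and 5.64%. C03 held 11 members (5.50%), beside 8.21% of the others, and 26 members had no placed chromosome (11 in A, 15 in C). Of the latter, BnaCnng09300D and BnaCnng29080D are placed on A chromosomes in the RefSeq table, which is of another assembly, so the subgenome read from an identifier is uncertain to that extent. In the identifier order 4 pairs of members were next to each other, and there was no run of 3. The number of such pairs in a like set of other genes was not computed. In the pair BnaC08g47170D and BnaC08g47180D, with leaf means of 77.7 and 108 CPM, Pearson's r of log2 CPM over the 6 leaf libraries was 0.85. It was 0.71 for BnaC06g41070D and BnaC06g41080D and 0.61 for BnaC03g65160D and BnaC03g65170D. For BnaC04g51600D and BnaC04g51610D it was -0.33.

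Reads on the strand opposite to the gene were not used by the rule. In leaves they made up between 0.133% and 0.352% of the members' stranded reads, with a median of 0.142% per member and of 0.177% for the other 2021 genes. The largest shares were those of BnaCnng32150D (5.36%) and BnaC09g07320D (4.53%), and 8 members (4.00%) exceeded 1%, beside 3.17% of the others. In roots the members had 788 opposite-strand reads, from 105 to 154 per library, beside the 292 to 1569 sense reads. In 147 members there were 0. The rule kept genes with few sense reads in roots, so it favours a high opposite-strand share there. That share in roots was not computed for the other 2021 genes. The highest number of root opposite-strand reads, singled out after its values were seen, was that of BnaA09g39610D. It had 24, 21 and 32 such reads in no-Si roots and 37, 44 and 30 in Si roots. It had 25 sense reads over the 6 root libraries, and in leaves it had 11465 sense reads and 2 on the opposite strand. BnaC08g31970D, singled out in the same way, had 103 opposite-strand and 23 sense reads in roots, and 11 and 15234 in leaves.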

How the data were processed

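The authors deposited 1 table per library with raw whole-number counts per gene identifier, in 3 columns (both strands, forward, reverse). Unmapped, multimapping, featureless and ambiguous reads were, per the file headers, kept apart from genes. The submitters' processing notes name TopHat2 and Bowtie2. The genome build, gene models and counter were not given in the sources used here. The reverse column was used as the sense count, with 14429867 to 21792206 gene counts per library. The opposite strand held 0.355% to 0.723%. Replicates differed beyond sampling noise (chi-square per degree of freedom at least 5.55).

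Members and lists were chosen with earlier results of these data known, among them a lower median of leaf-enriched genes with Si. CPM was the count divided by the library's gene counts, times 1000000. Si was tested in leaves by edgeR 4.0.16 (R 4.3.3; TMM, filterByExpr, robust quasi-likelihood fit, two-sided, Benjamini-Hochberg over all genes), with DESeq2 1.42.0 as an alternative, and both were tested on simulated counts. SEs came from the F statistic. Log2 CPM used a prior count of 1. Named were the 10 highest members, those at the limits, those with the smallest Si p in each direction, those with the widest and narrowest leaf range or most opposite-strand reads, and RefSeq matches. The 1.2 factor, the libraries it compares, the next 200 genes and the components were chosen after seeing the data.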

Additional observations from a re-analysis of the deposited data

How the results depend on the processing

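Of the 200 members, 114 were kept at a root limit of 0.25 CPM and 89 at a limit of 1 CPM. TMM-scaled CPM kept 164, counts without regard to strand 193, and leaving out each of the 12 libraries from 161 (without root no-Si replicate 2) to 199. The 3 leaf genes called by edgeR became 44 with DESeq2, 1 with the replicate block, 0 with the planting date term (855 genes at an unadjusted p under 0.05), and 1 to 7 when each library was left out. The 0 members called became 1 with DESeq2, BnaA07g28910D (log2 fold change -1.06), and stayed 0 under the other 12 alternatives, leave-outs included (0 to 0). The 30 members at an unadjusted p under 0.05 (1679 of all genes) became 18 (1410) with the replicate block, 14 (855) with the planting date term, which leaves 1 Si library to judge from, and 14 to 45 (1107 to 2917) when each library was left out. Same-numbered leaf libraries deviated from their group means with correlations of -0.02, -0.11 and 0.32, and other-numbered ones with -0.18 to 0.15. The highest value was that of a same-numbered pair, so these correlations do not settle whether the numbers are pairs. The labels give no pairing, and the numbers were not taken as pairs. The members' median log2 fold change stayed below 0 under all 13 alternatives, from -0.23 to -0.12. Root reads, 7 to 50 per member over 6 libraries, limit any statement about roots.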

Other observations

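Genes outside the list that were most like its first 2 members over the 12 libraries, by Pearson's r of log2 CPM among genes with a leaf mean of at least 1 CPM, were compared. At the leaf levels below, a gene outside the list has a root mean of 0.5 CPM or more by the rule. For BnaAnng40550D they were BnaA05g29390D, BnaA09g07840D and BnaA01g29410D, with leaf means of 675, 430.3 and 195 CPM and root means of 1.64, 0.708 and 0.617 CPM. Within the 6 leaf libraries alone their r with it was 0.94, 0.95 and 0.92. For BnaC02g25420D they were BnaC07g16640D, BnaA06g37230D and BnaA05g25050D, with leaf means of 489, 839 and 862 CPM, root means of 1.44, 2.02 and 1.13 CPM, and r of 0.94 each within leaves. Over 12 libraries r was above 0.99 for all 6 genes, a value set mostly by the difference between organs.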
